A study of Mus musculus with 12 samples.

Results

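The endocannabinoid genes described here are Cnr1, Plcb1, Dagla, Daglb, Mgll, Abhd6, Napepld and Faah, 8 of the 24079 genes in the deposited count table. They were chosen by symbol and not by a rule on their values, though earlier results of these data were known. Endocannabinoids are lipid messengers that neurons make on demand. In the hippocampus, 2-arachidonoylglycerol (2-AG) is formed in the postsynaptic pyramidal cell when a phospholipase C of the beta class cleaves a membrane lipid to diacylglycerol and a diacylglycerol lipase then trims it, and it travels back to presynaptic CB1 receptors, where it lowers transmitter release. Anandamide, an N-acylethanolamine, is made and degraded by other enzymes, among them those encoded by Napepld and Faah.

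Ribosome-bound mRNA was sequenced from the hippocampus of adult mice by the RiboTag approach, in which Cre recombinase replaces an exon of Rpl22, a ribosomal protein, with one that carries a hemagglutinin (HA) tag, so that tagged ribosomes and the mRNAs on them can be immunoprecipitated. The comparison was between 6 wild-type and 6 Fmr1-/y biological replicates (knockout of Fmr1, which encodes the RNA binding protein FMRP), each made from 4 to 6 mice aged 2 to 6 months that were pooled and gave 1 library. Mice of both genotypes carried the Wfs1-CreERT2 transgene, which places the Cre under the Wfs1 promoter of CA1 pyramidal neurons, together with the RiboTag allele, and both received tamoxifen at 100 mg/kg on 3 days, 1 week before use. The knockout was not restricted to CA1, and the precipitation started from whole hippocampus, so mRNA of other cells can be carried along.

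Between 39400980 and 55745464 reads were counted per wild-type pool and between 43106629 and 65565479 per Fmr1-/y pool. The knocked-out gene, Fmr1, was counted 1971 to 2608 times per wild-type pool, while Fmr1-/y replicate 2 had 1 read and the other 5 had 0. Markers of CA1 pyramidal neurons summed to 7691 to 9440 CPM (reads scaled to a common library size, with TMM normalization in edgeR) in wild-type and 7385 to 8793 CPM in Fmr1-/y pools. Camk2a made up most of these sums, at 5596 to 6659 CPM in wild-type and 5450 to 6303 CPM in Fmr1-/y pools. Each of the 7 CA1 markers had a lower mean in Fmr1-/y pools, from 82.9% (Wfs1) to 96.8% (Slc1a1) of wild type. Among them Wfs1, whose promoter drives the Cre, was at 82.9% of wild type in Fmr1-/y pools (unadjusted p = 0.00827, adjusted p = 0.410, edgeR). Markers of other cells were present, with interneuron markers at 249 to 426 and 271 to 357 CPM in wild-type and Fmr1-/y pools, oligodendrocyte markers at 1085 to 1629 and 978 to 1491 CPM, astrocyte markers at 735 to 891 and 804 to 1246 CPM, and microglial markers at 79.0 to 94.2 and 81.7 to 106 CPM, and no marker on these lists was at 0. In pooled tissue of this kind, fewer cells of a type and less mRNA per cell cannot be told apart.

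All 8 genes passed the filter of 15 reads over the 12 libraries, and none differed between genotypes at an adjusted p of 0.05 (edgeR's quasi-likelihood test over 17823 genes, Benjamini-Hochberg adjustment). Their adjusted p ran from 0.444 to 0.999, and DESeq2 likewise gave 0 of the 8. Across all genes tested the same threshold called 0.0224% of genes in edgeR and 0.471% in DESeq2. At an unadjusted p under 0.05, 1 of the 8 was lower, which was Dagla, and none was higher, where 3.67% of all genes were lower and 4.29% higher (7.96% in either direction). Of the 8 log2 fold changes (Fmr1-/y minus wild type), 5 were below 0, against 48.6% of all genes. The lowest was -0.24, the highest 0.10 and the median -0.07, beside a median of 0.00 over all genes. For none of the 8 did the libraries of the genotypes separate without overlap, as they did for 0.623% of all genes.

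**Figure D1:**
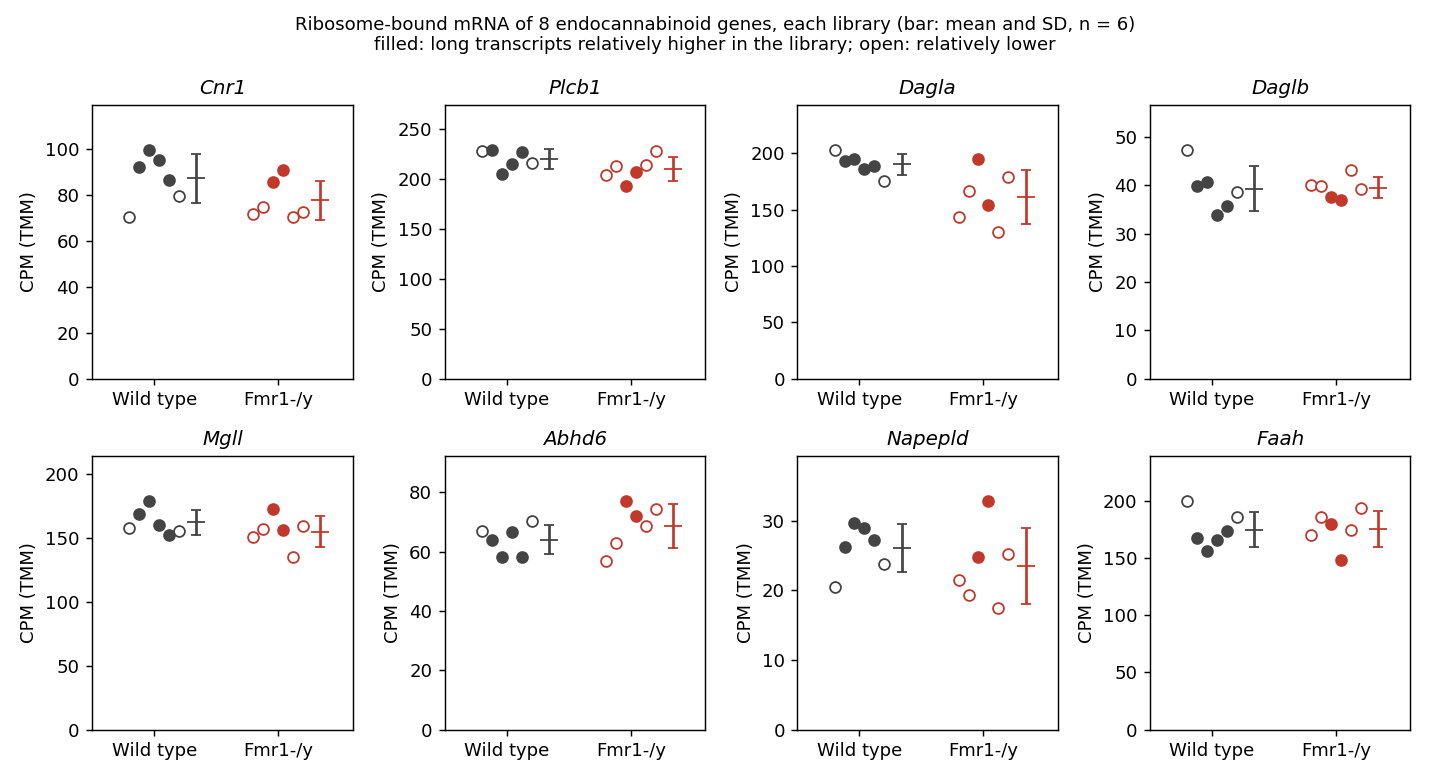
Normalized level (CPM after TMM scaling, linear axis from 0) of each endocannabinoid gene in every wild-type and Fmr1-/y pool, with the mean and SD of 6 libraries; filled points are libraries in which longer transcripts read relatively higher and open points those in which they read lower. The genotypes overlap for each gene, Dagla has 4 Fmr1-/y pools below the lowest wild-type pool, and the open and filled points of Cnr1 do not overlap.

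How strongly each gene was represented in the precipitated mRNA, which can include mRNA of other cells, was compared per length. This was CPM divided by the length in kb of all exons of the gene, over the 12 libraries. Faah, the hydrolase that degrades anandamide, was highest, at 45.8 ± 3.86 CPM per kb (SD, n = 12), and its lowest library (38.9) lay above the highest library of Mgll (37.1). Mgll, the main 2-AG hydrolase, followed at 33.0 ± 2.33 CPM per kb, then Dagla, the neuronal diacylglycerol lipase, at 31.2 ± 4.05, Plcb1, a phospholipase C of the beta class, at 28.5 ± 1.53, and Abhd6, a second 2-AG hydrolase, at 28.1 ± 2.75. Neighbours among these last 4 genes overlapped in their ranges and were not apart beyond their spread. Cnr1, which encodes the CB1 receptor, stood below all of them at 13.1 ± 1.67 CPM per kb and above Daglb, the second diacylglycerol lipase, at 8.46 ± 0.738. Napepld, which encodes the phospholipase D that releases anandamide from its precursor, was lowest at 6.27 ± 1.15 CPM per kb, and its range overlapped that of Daglb. The means of all 8 were above the median level per length of the genes tested, which was 4.81 CPM per kb. Per length, the mRNA of Faah was thus the highest of the 8 and that of Napepld the lowest. Napepld does not stand for all routes to N-acylethanolamines. Of the pathway genes on other such routes, taken up below, Gde1 was at 94.3, Gdpd1 at 25.8 and Abhd4 at 13.7 CPM per kb. The remaining gene of that group was below Napepld.

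**Figure D2:**
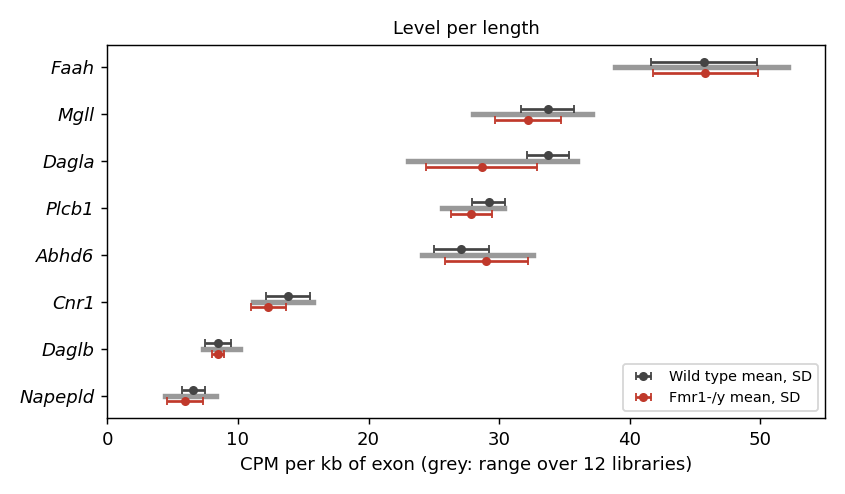
Level of each gene as CPM per kb of exon (linear axis from 0), with the wild-type and Fmr1-/y means and, in grey, the range over the 12 libraries. Faah lies apart at the top, Mgll, Dagla, Plcb1 and Abhd6 form an overlapping group near 30 CPM per kb, and Cnr1, Daglb and Napepld lie below.

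The gene of the CB1 receptor, Cnr1 (Entrez 12801, GRCm38.p6 chromosome 4 from 33923171 to 33948831), measured between 70.5 and 99.3 CPM with a median of 89.3 in wild-type pools. In Fmr1-/y pools it measured between 70.3 and 90.8 CPM with a median of 73.6. Most of the Fmr1-/y pools were thus at the low end of the wild-type range, with 5 of 6 below the wild-type median and 1 below the lowest wild-type pool. The Fmr1-/y mean of 77.6 ± 8.51 CPM was 89.0% of the wild-type mean of 87.2 ± 10.7 CPM (SD, n = 6 per genotype), and this difference did not pass the test (log2 fold change -0.17, standard error 0.09, unadjusted p = 0.0731, adjusted p = 0.679 in edgeR). The 95% interval of the change in Fmr1-/y pools ran from -21.7% to 1.22%.

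The libraries also differed in how longer transcripts read relative to shorter ones, and the levels of the 8 genes are given along that property as a description. Across 10148 genes, the deviation of each library from the mean of the 12 was correlated with the log2 exon length of the gene, and by the sign of that correlation, a split made after seeing the data, the libraries fell into 2 sets of 6. In the negative set, where longer transcripts read relatively lower, the correlation ran from -0.494 to -0.163 (Fmr1-/y replicates 1, 2, 5 and 6, wild-type replicates 1 and 6), and in the positive set from 0.180 to 0.475 (Fmr1-/y replicates 3 and 4, wild-type replicates 2, 3, 4 and 5). Cnr1 measured 70.3 to 79.3 CPM in the negative set and 85.6 to 99.3 CPM in the positive set, without overlap. Of all genes, 9.41% separated the sets in this way, and 1 of the 8 endocannabinoid genes did, a share near that of all genes, so this is not a result particular to them. Within the negative set Cnr1 was at 70.5 and 79.3 CPM in the wild-type pools and at 70.3 to 74.8 CPM in the Fmr1-/y pools. Within the positive set it was at 86.6 to 99.3 CPM in the wild-type pools and at 85.6 and 90.8 CPM in the Fmr1-/y pools, so the genotypes overlapped in both sets. The Fmr1-/y group held 2 of its 6 libraries in the positive set and the wild-type group 4 of 6. With the length correlation as a covariate in the edgeR fit, chosen after seeing the data, the log2 fold change of Cnr1 was -0.07 (unadjusted p = 0.238). With the choroid plexus marker score (a non-neuronal tissue beside the hippocampus, taken up with Dagla) as the covariate, likewise chosen after seeing the data, it was -0.23 (unadjusted p = 0.0348, adjusted p = 0.701 in edgeR), and Cnr1 was then the 1 gene of the 8 with an unadjusted p under 0.05.

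The enzymes of anandamide also differed between these library sets, in opposite directions and with some overlap, as a description without a test between the sets. Napepld (Entrez 242864, chromosome 5 from 21662901 to 21701622) measured 17.5 to 25.3 CPM in the negative set and 24.8 to 32.8 CPM in the positive set, as Cnr1 did. Faah (Entrez 14073, chromosome 4 from 115996668 to 116018837) was at 170 to 200 CPM in the negative set (169.7 to 199.6) and lower in the positive set, at 149 to 180 CPM. Daglb (Entrez 231871, chromosome 5 from 143464484 to 143504442) was likewise higher in the negative set, at 38.5 to 47.2 CPM, than in the positive set, at 33.9 to 40.6 CPM. In the deviation map Cnr1 and Napepld are thus high in the positive set, and Faah and Daglb in the negative set. Over the 12 libraries, r with the length correlation was 0.86 for Cnr1, 0.79 for Napepld, -0.70 for Faah and -0.54 for Daglb. The permutation p adjusted over the 8 genes was 0.0118, 0.0118, 0.0318 and 0.138 in that order, so Daglb did not pass. Within the negative and the positive set r was -0.52 and 0.24 for Cnr1, and 0.14 and 0.16 for Napepld. It was -0.21 and -0.27 for Faah, and 0.05 and 0.25 for Daglb. The permutations shuffled all 12 libraries across the sets, so their p does not measure a relation within a set. How many other genes reach such values was not computed. What sets the libraries apart was not tested.

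The sequence before a transcription start of Cnr1, Napepld and Faah is shown for genes whose levels were high in the same library set (Cnr1, Napepld) or in the opposite one (Faah), as a view of the loci and not as evidence on that split. Each is 250 bases upstream of a RefSeq start (GRCm38.p6), read 5′ to 3′ on the strand of the gene, with capitals marking GGGCGG or its reverse complement CCGCCC, the core of a GC box.
Cnr1, chr4:33924014-33924263, plus strand: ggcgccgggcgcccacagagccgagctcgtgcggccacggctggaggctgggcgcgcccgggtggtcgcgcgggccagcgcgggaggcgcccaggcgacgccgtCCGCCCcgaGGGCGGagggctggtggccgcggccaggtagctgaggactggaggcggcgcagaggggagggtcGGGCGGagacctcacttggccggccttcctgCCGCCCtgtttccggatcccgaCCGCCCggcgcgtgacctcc
Napepld, chr5:21701623-21701872, minus strand: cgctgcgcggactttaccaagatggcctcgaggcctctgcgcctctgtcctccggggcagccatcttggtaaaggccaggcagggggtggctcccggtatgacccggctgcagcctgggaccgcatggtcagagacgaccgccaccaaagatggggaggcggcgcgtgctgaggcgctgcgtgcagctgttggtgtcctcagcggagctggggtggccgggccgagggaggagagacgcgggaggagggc
Faah, chr4:116017925-116018174, minus strand: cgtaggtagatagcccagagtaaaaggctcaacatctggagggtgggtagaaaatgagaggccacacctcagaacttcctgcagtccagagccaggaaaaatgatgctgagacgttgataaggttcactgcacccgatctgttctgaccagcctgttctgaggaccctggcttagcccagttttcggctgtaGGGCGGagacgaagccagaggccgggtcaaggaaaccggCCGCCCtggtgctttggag
The Cnr1 window, the first of those listed for the gene, held 36 CG dinucleotides and 5 matches to GGGCGG on either strand, the most of the 3 windows listed. The other Cnr1 windows held 28 CG and 5 CG, each with 0 matches. The Napepld window held 21 CG and 0 matches, and the Faah window 9 CG and 2 matches. Over the 32851 windows of the table the median was 6 CG, and 32.74% held GGGCGG on either strand. CCAAT and TATAAA, searched on both strands, occurred in none of the 3 windows, and in 33.85% and 12.37% of all windows. These matches describe the letters of the windows only.

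**Figure D3:**
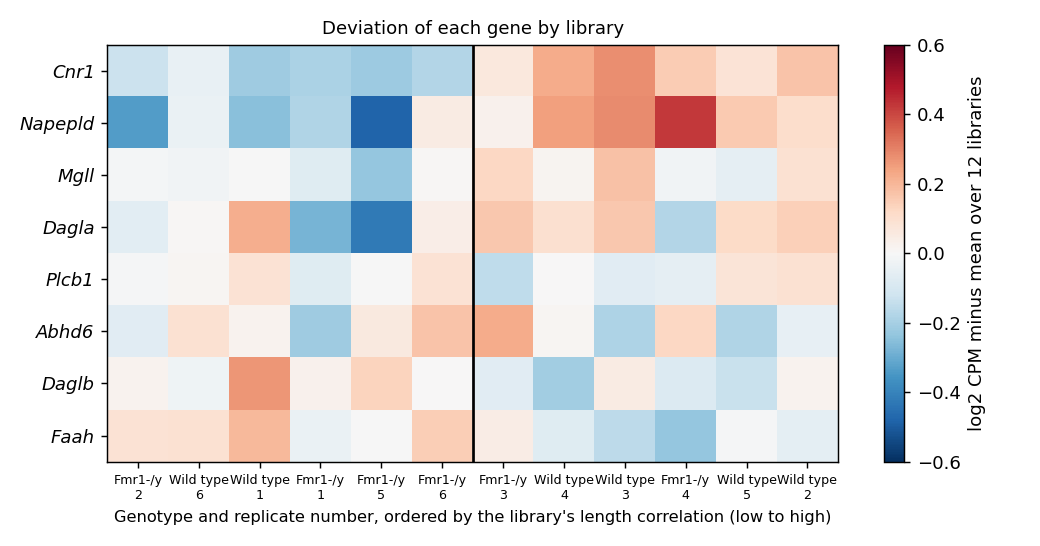
Deviation of each endocannabinoid gene from its mean over the 12 libraries (colour, log2 CPM), with the libraries ordered from the lowest to the highest length correlation. Cnr1 and Napepld go from below to above their mean along this order, Faah and Daglb go mostly from above to below, and Dagla is lowest in Fmr1-/y replicate 5.

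The synthesis of 2-AG begins with phospholipase C. Plcb1 (Entrez 18795, chromosome 2 from 134786164 to 135475258) lies in CA1 neurons downstream of Gq-coupled glutamate and acetylcholine receptors. It ranged from 204 to 228 CPM with a median of 221 in wild-type pools and from 193 to 228 CPM with a median of 210 (209.9) in Fmr1-/y pools, and 2 of the 6 Fmr1-/y pools lay below the lowest wild-type pool. Its log2 fold change was -0.07 in edgeR (standard error 0.05, adjusted p = 0.832), with an interval of -11.8% to 3.38%.

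Dagla (Entrez 269060, chromosome 19 from 10245265 to 10304877), the lipase that makes most of the 2-AG of neurons, had the log2 fold change farthest from 0 of the 8 genes. It measured between 175 and 202 CPM with a median of 191 in wild-type pools. In Fmr1-/y pools it measured between 130 (129.9) and 195 CPM with a median of 161. Thus 4 of 6 Fmr1-/y pools were below the lowest wild-type pool, while Fmr1-/y replicates 3 and 6 lay within the wild-type range. The mean was 161 ± 23.9 CPM in Fmr1-/y pools against 190.1 ± 9.18 CPM in wild-type pools (SD over 6 replicates), 84.9% of wild type, and the coefficient of variation was 14.8% against 4.83%. The log2 fold change was -0.24 (standard error 0.08, unadjusted p = 0.0110, adjusted p = 0.444 in edgeR), which placed Dagla at position 443 of the 17823 genes by p and did not pass the adjustment. The 95% interval of the change ran from -24.8% to -4.16%. In the negative library set Dagla was at 175 and 202 CPM in wild-type and 130 (129.9) to 179 CPM in Fmr1-/y pools, and in the positive set at 186 to 195 CPM in wild-type and at 154 and 195 CPM in Fmr1-/y pools.

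The level of Dagla was set beside markers of non-neuronal cells in each library, and the libraries low in Dagla were not all high in the same markers. Choroid plexus markers, a list of 9 genes such as Ttr that was added after seeing the data, summed to between 6328 and 11792 CPM per wild-type pool and to between 8249 and 17424 CPM per Fmr1-/y pool. Each of the 9 had a higher mean in Fmr1-/y pools, from 123.2% (Sostdc1) to 148.3% (Cldn2) of wild type. Their adjusted p in edgeR was 0.301 (Folr1) or more. Fmr1-/y replicate 5, lowest in Dagla, ranked 4 of the 12 libraries in these markers (11685 CPM) and 6 in astrocyte markers (857 CPM). Fmr1-/y replicate 1, next in Dagla at 143 CPM, ranked 1 in choroid plexus markers (17424 CPM) and in astrocyte markers (1246 CPM). Fmr1-/y replicate 4, at 154 CPM of Dagla, ranked 2 in choroid plexus markers (13754 CPM) and 3 in astrocyte markers (925 CPM). Fmr1-/y replicate 2, at 167 CPM of Dagla, ranked 9 in choroid plexus markers (8249 CPM) and 2 in astrocyte markers (1087 CPM). Endothelial markers (Cldn5, Flt1 and Pecam1) summed to 19.0 to 29.6 CPM in wild-type and 24.1 to 38.7 CPM in Fmr1-/y pools. Their highest sum was in Fmr1-/y replicate 5 (38.7 CPM), with replicate 2 at 37.3, replicate 1 at 34.4 and replicate 4 at 24.1 CPM. Each had a higher mean in Fmr1-/y pools (122.4% to 138.4% of wild type, adjusted p of 0.504 or more in edgeR). No fit with an endothelial score was made. Wild-type replicate 3 ranked 3 in choroid plexus markers (11792 CPM) and 11 in astrocyte markers (793 CPM) with Dagla at 195 CPM, near the top. Ttr made up most of each choroid plexus sum. Without Ttr the sum was 589 CPM in wild-type replicate 3. That was below wild-type replicate 4 (684 CPM) and Fmr1-/y replicates 1, 4, 5 and 6 (599 to 987 CPM). With the astrocyte marker score as a covariate in edgeR the log2 fold change of Dagla was -0.18 (unadjusted p = 0.0708), and with the choroid plexus score it was -0.16 (unadjusted p = 0.0897). Without the 3 Fmr1-/y pools highest in astrocyte markers (replicates 1, 2 and 4) edgeR gave -0.18 (unadjusted p = 0.104). These 3 fits were chosen after seeing the data, and in each the sign held while the unadjusted p was above 0.05. The length correlation as a covariate, likewise chosen after seeing the data, left the log2 fold change of Dagla at -0.22. There its unadjusted p in edgeR was 0.0173, and the adjusted p was at least 0.330.

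**Figure D4:**
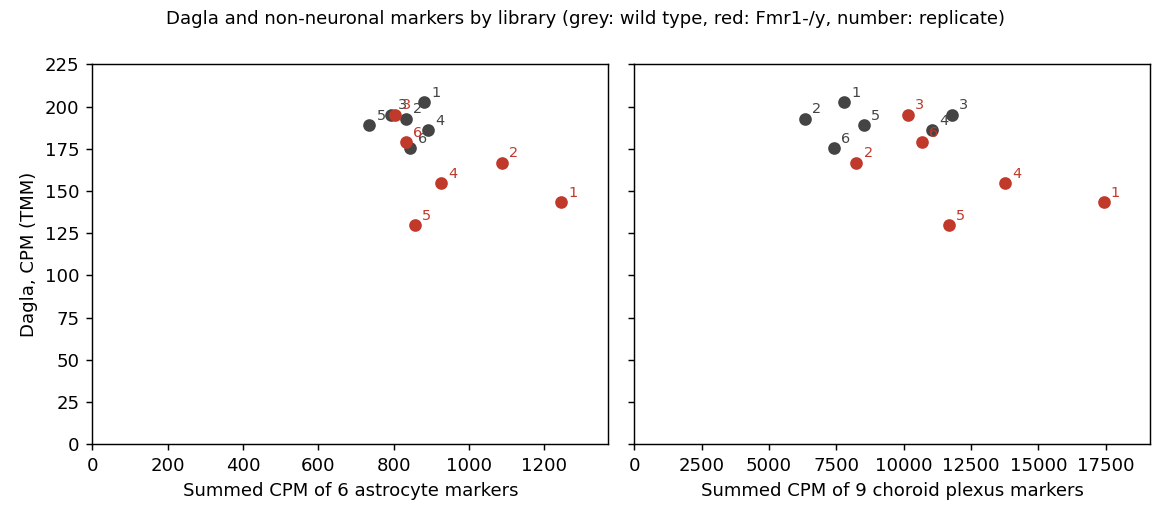
Level of Dagla (CPM) in each library against the summed CPM of astrocyte markers and of choroid plexus markers, with wild-type pools in grey, Fmr1-/y pools in red and the replicate number beside each point. Fmr1-/y replicates 1, 4 and 5 hold the 3 lowest Dagla values, replicates 1 and 4 hold the 2 highest choroid plexus sums, and wild-type replicate 3 has the third highest with a Dagla level of 195 CPM.

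Daglb, the second lipase, had a fold change near 0. It ranged from 33.9 to 47.2 CPM with a median of 39.1 in wild-type and from 37.0 to 43.0 CPM with a median of 39.5 in Fmr1-/y pools, so every Fmr1-/y pool lay inside the wild-type range. Its log2 fold change in edgeR was 0.01 (standard error 0.08, adjusted p = 0.998), and its interval of -10.5% to 12.5% leaves room for changes of that size in either direction.

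Mgll (Entrez 23945, chromosome 6 from 88724412 to 88828360), which ends the action of 2-AG in presynaptic terminals, ranged from 153 to 179 CPM with a median of 159 in wild-type and from 135 to 173 CPM with a median of 157 in Fmr1-/y pools. The ranges overlapped except for Fmr1-/y replicate 5 (135 CPM) and replicate 1 (151 CPM), which lay under the wild-type range and were also the lowest in Dagla. Its log2 fold change in edgeR was -0.07 (standard error 0.06, adjusted p = 0.866). Abhd6 (Entrez 66082, chromosome 14 from 8002888 to 8056773), which hydrolyses 2-AG on the postsynaptic side, had the highest of the 8 log2 fold changes. It ranged from 58.2 to 70.4 CPM with a median of 65.3 in wild-type and from 57.0 to 77.0 CPM with a median of 70.3 in Fmr1-/y pools, a wider spread that exceeded the wild-type range at both ends. In edgeR the log2 fold change was 0.10 (standard error 0.08, adjusted p = 0.824), with an interval of -4.42% to 20.1%. In edgeR it was 0.18 with the astrocyte score as a covariate (unadjusted p = 0.0417) and 0.19 without the 3 libraries named above (unadjusted p = 0.0320).

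The ratio of Dagla to Mgll, the main forming against the main degrading enzyme of 2-AG, was computed in each library from CPM that were not divided by length, and no test was made of it. It ran from 1.09 to 1.28 in wild-type and from 0.952 to 1.13 in Fmr1-/y pools. On the log2 scale the ratio was 0.23 ± 0.09 in wild-type and 0.05 ± 0.11 in Fmr1-/y pools (SD over 6 replicates each). The lowest Fmr1-/y ratios were those of replicates 1, 4 and 5, and the ranges overlapped between 1.09 and 1.13.

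For anandamide, Napepld ranged from 20.6 to 29.8 CPM with a median of 26.7 in wild-type and from 17.5 to 32.8 CPM with a median of 23.2 in Fmr1-/y pools, and the Fmr1-/y range enclosed that of wild type. Its log2 fold change in edgeR was -0.15 with the largest standard error of the 8 genes, 0.13 (adjusted p = 0.853), and an interval of -25.6% to 9.51%. Faah ranged from 156 to 199.6 CPM with a median of 171 in wild-type and from 149 to 193 CPM with a median of 177 in Fmr1-/y pools. Its means were level, at 175 ± 15.6 and 175 ± 15.5 CPM (SD, n = 6 each), with a log2 fold change in edgeR of 0.00 (standard error 0.07, adjusted p = 0.999) and an interval of -9.76% to 11.3%. The log2 ratio of Napepld to Faah was -2.75 ± 0.32 in wild-type and -2.92 ± 0.41 in Fmr1-/y pools (SD over 6 replicates each), and the genotypes overlapped.

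**Figure D5:**
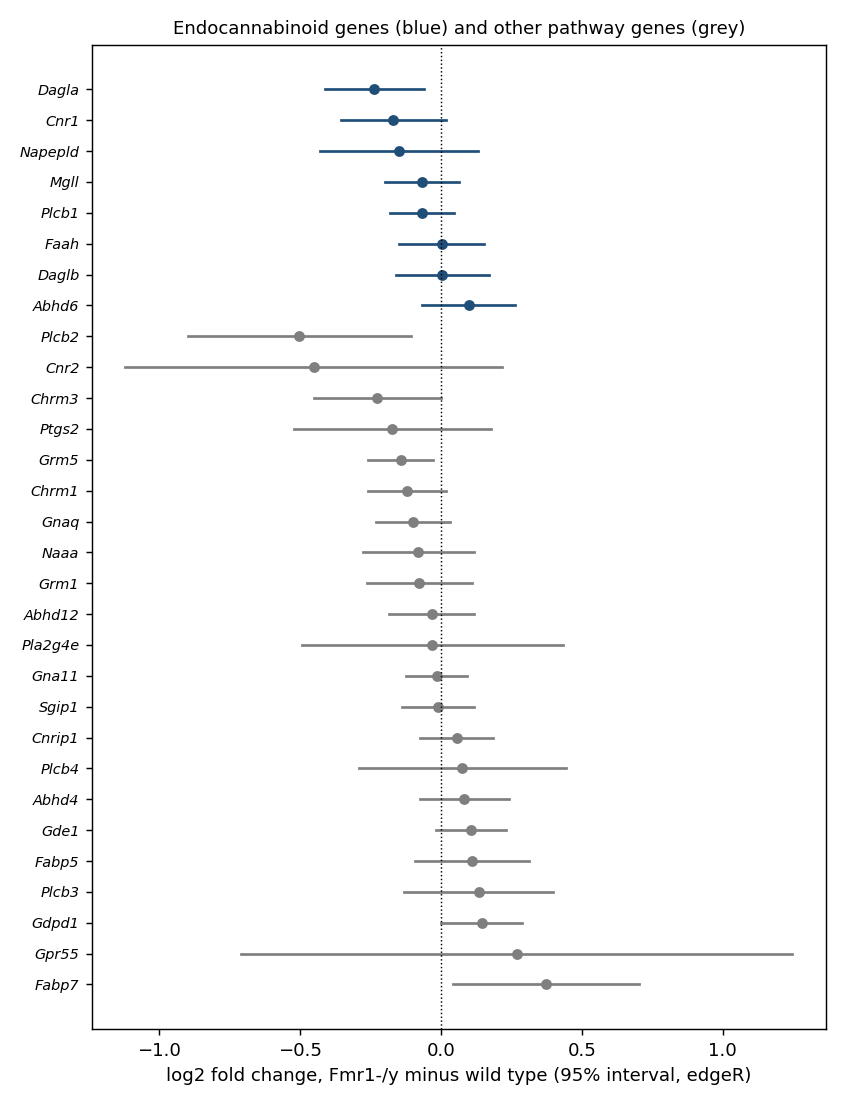
Log2 fold change (Fmr1-/y minus wild type) with its 95% interval from edgeR for the endocannabinoid genes (blue) and the other pathway genes tested (grey), Gpr18 left out for its low counts. The interval of Dagla is the only blue one that does not cross 0, and no gene drawn passed an adjusted p of 0.05.

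The wider pathway was described with a list of 25 further genes, of which 23 passed the filter and none reached an adjusted p of 0.05 (0.494 to 0.990). At an unadjusted p under 0.05, 3 were lower and 2 higher, beside 3.67% lower and 4.29% higher (7.96% in either direction) over all genes. The log2 fold changes of the 23 lay between -0.50 and 0.37 around a median of -0.03. Of the Gq-coupled receptors that act upstream of Plcb1, Grm5, the metabotropic glutamate receptor mGluR5, ranged from 204 to 227 CPM in wild-type and from 181 to 214 CPM in Fmr1-/y pools. In Fmr1-/y pools 5 of 6 values of Grm5 were below the lowest wild-type value (edgeR, log2 fold change -0.14, standard error 0.05, unadjusted p = 0.0175, adjusted p = 0.496). Chrm3, a muscarinic acetylcholine receptor, was at 58.7 ± 10.8 CPM in Fmr1-/y and 68.6 ± 6.78 CPM in wild-type pools (edgeR, log2 fold change -0.23, unadjusted p = 0.0494, adjusted p = 0.625). Neither Grm5 nor Chrm3 was under 0.05 with the astrocyte or choroid plexus score as a covariate, or without the 3 Fmr1-/y pools highest in astrocyte markers. Over these edgeR fits the unadjusted p reached 0.102 for Grm5 and 0.343 for Chrm3. With the length correlation as a covariate both stayed under 0.05. The genes of this step with the highest level per length were Gnaq and Gna11, the alpha subunits of G proteins, and Chrm1, a further muscarinic receptor. Gnaq was at 362 and 338 CPM in wild-type and Fmr1-/y pools, Chrm1 at 324 and 298 CPM and Gna11 at 116 and 115 CPM, and edgeR gave Gnaq an unadjusted p of 0.130 and Chrm1 one of 0.0854. Plcb2, a low phospholipase C gene, was at 1.98 ± 0.250 and 1.40 ± 0.295 CPM (edgeR, log2 fold change -0.50, unadjusted p = 0.0163, adjusted p = 0.494). Plcb3 was at 15.6 and 17.1 CPM and Plcb4 at 9.50 and 10.01 CPM.

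Of the other receptors, Cnr2, the CB2 receptor, averaged 0.881 CPM over the wild-type and 0.643 CPM over the Fmr1-/y pools, and Gpr55 averaged 0.426 and 0.511 CPM, both under 1 CPM. Gpr119 had 0 reads in every library and Trpv1 at most 1, and both stayed out of the test. The CB1-binding proteins Cnrip1 (91.9 and 95.6 CPM) and Sgip1 (89.0 and 88.4 CPM) had adjusted p above 0.05. Abhd12, a further 2-AG hydrolase, was at 96.5 CPM per kb and so above Faah per length, with means of 195 and 191 CPM in the 2 genotypes. Among genes of alternative routes to N-acylethanolamines, Gdpd1 was at 57.2 ± 5.49 and 63.2 ± 2.39 CPM (edgeR, log2 fold change 0.14, unadjusted p = 0.0470, adjusted p = 0.621) and Gde1 at 144 and 155 CPM (unadjusted p = 0.0834). Abhd4, on a further such route, was at 35.8 and 37.9 CPM (log2 fold change 0.08, adjusted p = 0.849 in edgeR). Naaa, an acid hydrolase of N-acylethanolamines, was at 33.8 and 31.98 CPM (log2 fold change -0.08, adjusted p = 0.906 in edgeR), and Ptgs2, the cyclooxygenase that oxidises endocannabinoids, at 12.9 and 11.4 CPM (log2 fold change -0.17, adjusted p = 0.871 in edgeR). The fatty acid binding proteins that carry anandamide inside cells were at 94.9 and 102 CPM (Fabp5) and at 26.3 ± 3.70 and 34.02 ± 9.94 CPM (Fabp7 in edgeR, log2 fold change 0.37, unadjusted p = 0.0289, adjusted p = 0.550). Fabp7 is also an astrocyte gene, and with the astrocyte score as a covariate in edgeR its log2 fold change was 0.02 (unadjusted p = 0.859). That fit was chosen after seeing the data. The score itself was 6.94 ± 0.22 in Fmr1-/y and 6.76 ± 0.09 in wild-type pools (SD), so such a fit cannot tell astrocyte content from genotype. The cause of the Fabp7 difference was not tested.

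Because CB1 is also strong in interneurons that hold cholecystokinin, the level of each of the 8 genes was set against marker scores of interneurons, astrocytes, oligodendrocytes and microglia over the 12 libraries, 32 relations in all. For Cnr1 and the interneuron score Pearson's r was 0.65 (permutation p = 0.0185, adjusted 0.198) and Spearman's rho 0.61 (permutation p = 0.0395, adjusted 0.393), so the relation did not pass the adjustment. Without wild-type replicates 1 and 4, which lay farthest from the median score, r was 0.48. It was 0.79 within wild-type and 0.65 within Fmr1-/y pools, but 0.28 and 0.22 within the negative and the positive library set. For Daglb and the same score r was -0.84 (permutation p = 0.00129, adjusted 0.0413) and rho -0.56 (permutation p = 0.0631, adjusted 0.393). Without the same 2 libraries r was -0.48, so the relation of Daglb rested in part on them. It was -0.92 within wild-type and -0.44 within Fmr1-/y pools, and -0.68 and -0.82 within the negative and the positive set. No other relation of the 32 passed the adjustment on either measure.

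Of 13767 genes with a mean of at least 1 CPM, those whose log2 CPM was most like that of Cnr1 over the 12 libraries were Lig3 (r = 0.968), Slc9a4 (0.967), Stox2 (0.959), Ell (0.952) and Zfp236 (0.951). These values span both library sets and share their libraries, and are a description without a test. Among the endocannabinoid genes Napepld stood closest to Cnr1 and ranked 444.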

How the data were processed

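Ribosome-bound mRNA of 6 wild-type and 6 Fmr1-/y replicates was sequenced from stranded libraries. The authors aligned the reads to mm10 with TopHat2 2.1.1 and Bowtie2 2.2.8, counted them per gene with HTSeq 0.6.1p1, using the strand, and deposited raw counts without normalization. Read counts of near-identical gene copies can be incomplete in such counting.

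The 17823 genes with 15 reads or more in total were tested with edgeR 4.0.16 in R 4.3.3 (TMM normalization, quasi-likelihood test, Benjamini-Hochberg adjustment, threshold 0.05), without covariates. The standard error is the size of the log2 fold change divided by the square root of F. DESeq2 1.42.0, limma 3.58.1 and other filters, scalings, covariates and left-out libraries were alternatives. The method was also run on simulated counts, with changes larger than those of the 8 genes and without library sets, so that run does not bear on their results. Marker scores are mean log2 CPM with a prior count of 2. Correlations of the 8 genes with these scores and with the length correlation used 100000 two-sided permutations. Exon lengths came from GENCODE, matched by Entrez identifier for 93.2% of tested genes, and coordinates and upstream sequences from RefSeq on GRCm38.p6, the build of mm10. The symbol chose the 8 genes. All 8 are named, and of the pathway list those with an unadjusted p under 0.05 or among the 3 highest per length in their role, and the 2 that did not pass the filter. The members and lists were chosen with earlier results of these data known. Depth limits the low genes (Cnr2, Gpr55, Gpr18, Plcb2), and was 39400980 to 65565479 reads per library.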

Additional observations from a re-analysis of the deposited data

Results flagged for a closer look

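In a search of 62 groups of 6 libraries for a value far from the other 5, in which chance gives about 3.1, the Fmr1-/y group had 2. Gpr18, an orphan lipid receptor gene, was at 0.295 CPM in Fmr1-/y replicate 1 and at 0 in the other 5, so the gap to the nearest value was 1 times the range of the group. Naaa, an acid hydrolase of N-acylethanolamines, was at 40.6 CPM in Fmr1-/y replicate 1 and at 28.3 to 31.7 CPM in the other 5, a gap of 0.7253 of the range. Both values belong to the library that was highest in astrocyte markers (1246 CPM) and choroid plexus markers (17424 CPM), and the part of those cells in them was not tested. No value of the 8 endocannabinoid genes stood apart in this way.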

How the results depend on the processing

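None of the 8 endocannabinoid genes and none of the 23 pathway genes tested passed an adjusted p of 0.05 in any of the 24 alternatives. Dagla, Cnr1, Mgll, Plcb1, Napepld and Abhd6 kept the sign of their fold change in all of them, with an adjusted p of 0.207 to 0.864 for Dagla and 0.460 to 0.961 for Cnr1. The sign of Daglb and Faah turned with the length correlation as a covariate (-0.042 and -0.058) and with single libraries left out, where the log2 fold change ran from -0.034 to 0.065 for Daglb and from -0.027 to 0.046 for Faah. The number of the 8 genes with an unadjusted p under 0.05 ran from 1 to 3 with 1 library left out, where the share of all genes ran from 5.99% to 9.57%. Dagla stayed among them in each case (-0.30 to -0.18), Cnr1 joined without Fmr1-/y replicate 3, Fmr1-/y replicate 4 or wild-type replicate 1 (unadjusted p of 0.0468, 0.0213 and 0.0141 in edgeR), and Napepld joined without Fmr1-/y replicate 4. Cnr1 in place of Dagla had such a p with the choroid plexus score as a covariate (-0.23, unadjusted p = 0.0348 in edgeR, 7.05% of all genes), and Abhd6 in place of Dagla with the astrocyte score or without the 3 Fmr1-/y libraries highest in astrocyte markers (6.04% and 6.09% of all genes). Of the pathway genes 2 to 5 had such a p with 1 library left out, and 2 had it with the astrocyte score as a covariate or without the 3 Fmr1-/y libraries highest in astrocyte markers. With the choroid plexus score they were Plcb4, Gde1, Gdpd1 and Naaa, beside 7.05% of all genes. With the length correlation they were Grm5, Chrm1, Chrm3, Gnaq, Plcb2 and Abhd12, beside 11.3% of all genes. Deviations of libraries with the same replicate number correlated at -0.081 to 0.090 over all genes, and at -0.44 to 0.60 over genes with a mean log2 CPM over 5, so not every pair was above 0.1 on either measure and the numbers were not treated as pairs. With the replicate block 2 of the 8 genes, Dagla and Cnr1, had an unadjusted p under 0.05, beside 8.39% of all genes. The sign also turned for Abhd4 with the astrocyte score as a covariate (-0.025) and without those 3 libraries (-0.0088), and for Ptgs2 with the length correlation as a covariate (0.015). Over all genes, edgeR called 4, DESeq2 84, and edgeR with the length correlation as a covariate 13. The difference of the genotypes in the log2 ratio of Dagla to Mgll (-0.18) ran from -0.20 to -0.15, and that of Napepld to Faah (-0.17) from -0.32 to -0.09, with 1 library left out. For Napepld, one of the lower members, the 95% interval spans changes from -25.6% to 9.51%.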
